A study of Mus musculus with 12 samples.

Results

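The genes described here are the fast and slow isoforms of the contractile apparatus of skeletal muscle: 38 listed genes that encode proteins of the sarcomere or that pump, store or buffer calcium. A probeset, the group of short probes that reads a transcript, was assigned to 37 of the 38 with a single gene symbol. Mybph, which encodes myosin-binding protein H, had none and was not analysed here. These 37 were among 22180 genes of the series with such a probeset, and all 37 were among the 13308 genes bright enough to be tested. By fibre type, 10 were slow members, 17 fast members and 3 developmental members, and 7 other members were placed in none of these classes.

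RNA of gastrocnemius, a calf muscle of mostly fast fibres, was measured on 12 whole-transcript arrays (Affymetrix Mouse Gene 2.0 ST) in 4 groups of 3 mice. The groups were ERRα-null mice 2 h after an exhausting treadmill run, wild-type mice 2 h after the same run, sedentary ERRα-null mice and sedentary wild-type mice. All 12 mice are labelled FVB males, aged 2 to 3 months. The null mice lack ERRα, the nuclear receptor encoded by Esrra, and no tissue-specific driver is given, so the loss was not described as limited to muscle. In bulk muscle, fewer fibres of a type and less RNA per fibre cannot be told apart.

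Muscle shortens when myosin heads of the thick filament pull on actin of the thin filament, and calcium released from the sarcoplasmic reticulum starts this by binding troponin. Most of these proteins exist as a slow form, made in fatigue-resistant oxidative fibres, and a fast form, made in quickly contracting fibres, each from its own gene. ERRα is a transcription factor best known for driving mitochondrial and oxidative genes, which are abundant in slow fibres.

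Values are log2 expression, so a difference of 1 is a doubling, and each difference is given with the standard error (SE) of limma, a linear model fitted across all tested genes. A gene is said to have risen, fallen or been called when its p-value, adjusted over the 13308 genes, was under 0.05. Esrra read 6.55, 6.89 and 6.68 in sedentary ERRα-null muscles, against 7.61, 7.57 and 7.41 in sedentary wild-type muscles. It fell by 0.82 ± 0.11 (SE, limma adjusted p = 0.0238) at rest and by 0.78 ± 0.11 (limma adjusted p = 0.0227) after exercise, which checks the genotype labels. It did not pass in every reduced set of arrays, with a leave-one-out adjusted p at rest of 0.0383 to 0.139, and the call at rest was also lost with replicate numbers as a block (adjusted p = 0.059). Groups were taken from the sample titles, since another label states the other exercise state for sedentary ERRα-null and exercised wild-type muscles. In 3 exercised muscles labelled male (ERRα-null replicates 2 and 3, wild-type replicate 3) the female transcript Xist was above the Y-linked Eif2s3y. Mean levels of 8 muscle marker genes lay between 12.44 and 12.59 on all arrays, and those of 8 heart markers between 5.84 and 6.15, of which 7 were bright enough to be tested.

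The arrays do not sample DNA, but the sequence just before a gene's start is where its transcription is switched on, and RefSeq (assembly GRCm38.p6) gave this for 30 of the 38 genes. For each of their 35 start sites the 250 bases before the start were searched on both strands for 4 motifs: the extended ERR element TNAAGGTCA, which ERRα can bind; the E-box CANNTG, bound by the MyoD family; the TATA box TATAAA; and the MEF2 site. TATA box and MEF2 matches can overlap. The ERR element was found in 1 of the 35 member windows, 1 of the 2 listed for Tpm3, and in 1.14% of all 32851 windows. The E-box was found in 30 of 35 windows (66.2% of all windows), the TATA box in 9 of 35 (12.4%) and the MEF2 site in 7 of 35 (2.92%). A match is a string of letters and not a site shown to be bound. Below are the windows of 4 slow members whose values are described next, and of Myh4, the main fast myosin, for contrast. Capitals mark motif matches: the ERR element and an E-box in Tpm3, a MEF2 site and E-boxes in Myoz2, an E-box and a TATA box in Tnnt1, E-boxes in Myh7 (shown for 1 of its 2 listed starts), and E-boxes, TATA boxes and a MEF2 site in Myh4.
Tpm3 (chr3:90072401-90072650, plus strand): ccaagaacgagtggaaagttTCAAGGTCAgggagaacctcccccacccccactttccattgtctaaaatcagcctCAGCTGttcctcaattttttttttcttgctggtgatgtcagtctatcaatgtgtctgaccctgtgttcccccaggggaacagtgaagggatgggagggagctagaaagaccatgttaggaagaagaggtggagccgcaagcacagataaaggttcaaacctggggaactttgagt
Myoz2 (chr3:123034988-123035237, minus strand): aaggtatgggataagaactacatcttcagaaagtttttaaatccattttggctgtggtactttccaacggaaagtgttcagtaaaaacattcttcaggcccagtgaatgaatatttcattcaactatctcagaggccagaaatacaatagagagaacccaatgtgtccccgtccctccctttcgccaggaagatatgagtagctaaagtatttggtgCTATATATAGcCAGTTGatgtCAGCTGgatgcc
Tnnt1 (chr7:4515976-4516225, minus strand): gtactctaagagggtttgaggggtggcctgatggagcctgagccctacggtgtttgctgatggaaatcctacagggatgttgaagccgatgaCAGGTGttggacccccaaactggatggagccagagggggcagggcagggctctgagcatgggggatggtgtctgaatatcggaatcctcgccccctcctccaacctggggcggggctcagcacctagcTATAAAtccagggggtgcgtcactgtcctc
Myh7 (chr14:54994550-54994799, minus strand): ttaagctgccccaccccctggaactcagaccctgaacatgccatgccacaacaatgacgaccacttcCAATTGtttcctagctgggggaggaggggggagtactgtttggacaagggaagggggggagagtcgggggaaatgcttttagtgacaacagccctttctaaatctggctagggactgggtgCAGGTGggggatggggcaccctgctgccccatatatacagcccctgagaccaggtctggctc
Myh4 (chr11:67237562-67237811, plus strand): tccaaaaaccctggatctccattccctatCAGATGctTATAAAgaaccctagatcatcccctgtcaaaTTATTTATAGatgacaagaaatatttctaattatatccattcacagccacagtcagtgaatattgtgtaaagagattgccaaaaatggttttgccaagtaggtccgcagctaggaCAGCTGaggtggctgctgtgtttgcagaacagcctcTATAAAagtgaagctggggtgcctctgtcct
No window was listed for Actn3, Atp2a2, Mylk2, Myoz1, Myoz3, Neb, Tnni2 and Tnnt3.

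Sedentary ERRα-null muscle had higher mean levels of all 10 slow members than sedentary wild-type muscle, with a median difference of 0.54, or 1.45-fold, while the 17 fast members had a median difference of 0.02. No single member passed. Of the 37, 0 were called by limma at rest (0.0827% of all tested genes were called), and 11 had an unadjusted p under 0.05, all higher (4.07% of all tested genes). Those 11 were 8 of the 10 slow members, 1 fast member (Actn3), 1 developmental member (Myh3) and Mybpc1. Myh3 was among the genes tested only through its level in ERRα-null muscle, so its place in this count and in the counts of groups without overlap supports nothing. The groups did not overlap, with ERRα-null higher, for 10 of the 37 (6.91% of all tested genes), made up of 3 slow, 5 fast, 1 developmental and 1 other member. Over all tested genes the median difference was 0 and 49.6% were above 0.

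Among thick filament genes, Myh7 encodes the slow myosin heavy chain, the motor that defines slow fibres. Myh7 read 10.78, 11.08 and 11.29 in sedentary ERRα-null muscles, against 10.72, 9.81 and 10.30 in sedentary wild-type muscles. All 3 null arrays were above all 3 wild-type arrays, but the lowest null and highest wild-type arrays lay close together. The difference was 0.77 ± 0.26 (SE, 1.71-fold, unadjusted p = 0.0114, limma adjusted p = 0.409). After exercise Myh7 read 10.53, 10.74 and 11.00 in ERRα-null muscles, against 9.93, 10.53 and 10.93 in wild-type muscles. Here the groups overlapped, and the difference of 0.29 ± 0.26 did not pass (limma adjusted p = 0.815). It was 0.02 without exercised wild-type replicate 1 and 0.52 without exercised wild-type replicate 3. The slow light chains, which stiffen the neck of the myosin head, were higher by 0.33 (Myl2, regulatory) and 0.55 (Myl3, essential) at rest and by 0.06 and 0.20 after exercise, and none of these values passed.

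**Figure D1:**
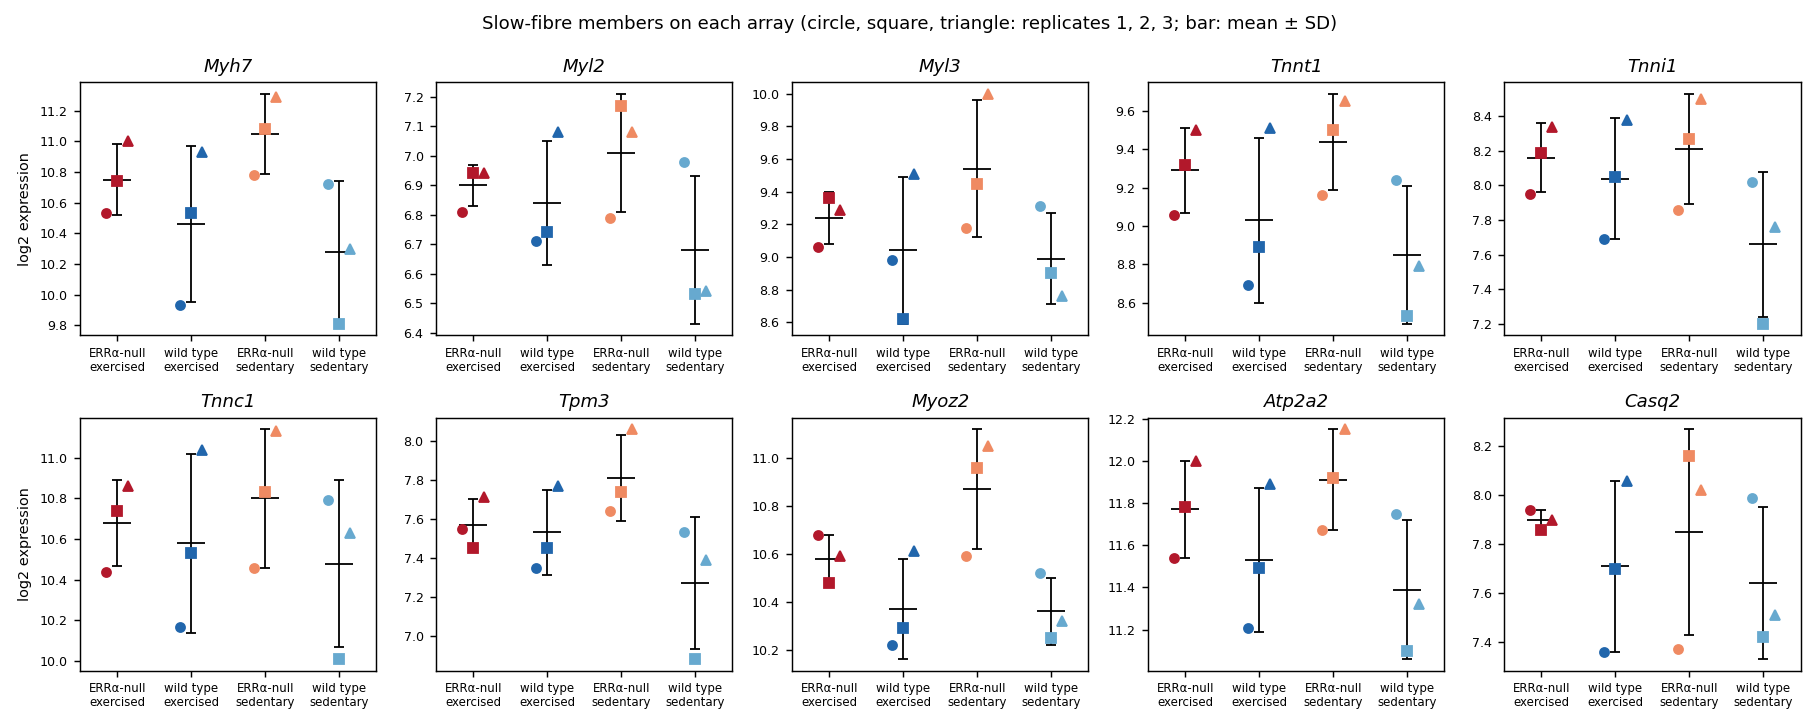
Log2 expression of the 10 slow members on each of the 12 arrays, by group (x axis); circles, squares and triangles are replicates 1, 2 and 3, and bars are means ± SD. In every panel the mean of sedentary ERRα-null muscle is above that of sedentary wild-type muscle, while points of both genotypes overlap in 7 of the 10 panels at rest.

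The fast myosin heavy chains showed no such shift. Myh4, the heavy chain of the fastest (IIb) fibres, read 13.59, 13.56 and 13.57 in sedentary ERRα-null muscles, against 13.59, 13.57 and 13.54 in sedentary wild-type muscles. Its difference was 0.00 ± 0.04, with a 95% interval of -0.09 to 0.10. Myh1, of IIx fibres, read 12.29, 12.35 and 12.26 in sedentary ERRα-null muscles, against 12.62, 12.54 and 12.04 in sedentary wild-type muscles, a difference of -0.09 ± 0.13. The wild-type arrays enclosed the null arrays. Myh2, of the more oxidative IIa fibres, read 11.87, 12 and 11.73 in sedentary ERRα-null muscles, against 12.06, 12.04 and 11.53 in sedentary wild-type muscles, a difference of -0.01 ± 0.12. In both genes the wild-type replicate 3 was the lowest of the 12 arrays. After exercise Myh4 read 13.56, 13.66 and 13.54 in ERRα-null muscles, against 13.58, 13.63 and 13.58 in wild-type muscles. Myh1 read 12.35, 12.24 and 12.32 in exercised ERRα-null muscles, against 12.22, 12.57 and 12.40 in exercised wild-type muscles, and Myh2 read 11.72, 11.73 and 11.73 against 11.77, 11.71 and 11.81. The genotype differences after exercise were -0.01, -0.09 and -0.03 for Myh4, Myh1 and Myh2, each with overlapping groups. The sequences of the myosin heavy chain genes are much alike, so how much of each signal comes from a related gene cannot be told apart.

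Developmental heavy chains mark young or regenerating fibres. Myh3, the embryonic form, read 5.36, 5.59 and 6.26 in sedentary ERRα-null muscles, against 4.88, 4.83 and 5.25 in sedentary wild-type muscles. After exercise it read 5.23, 5.61 and 5.75 in ERRα-null muscles, against 5.10, 5.23 and 5.20 in wild-type muscles. Myh3 was the dimmest member: its mean of 5.36 lay just above the filter at 5.32, while all 6 wild-type arrays lay below that filter. It passed only through the ERRα-null groups, so its values are given as a description, with no test. After exercise the difference was 0.35, and it was 0.07 without the 3 arrays of female profile. Myh8, the perinatal form, read 6.55, 6.60 and 6.76 in sedentary ERRα-null muscles, against 6.94, 6.83 and 6.63 in sedentary wild-type muscles, a difference of -0.16 ± 0.12. After exercise it read 6.67, 6.92 and 6.87 in ERRα-null muscles, against 6.49, 6.84 and 6.69 in wild-type muscles. A second, dimmer Myh8 probeset differed in sign at rest (0.40), so no direction is given for Myh8. Myl4, an embryonic light chain, differed by 0.12 at rest and 0.17 after exercise, with no call.

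**Figure D2:**
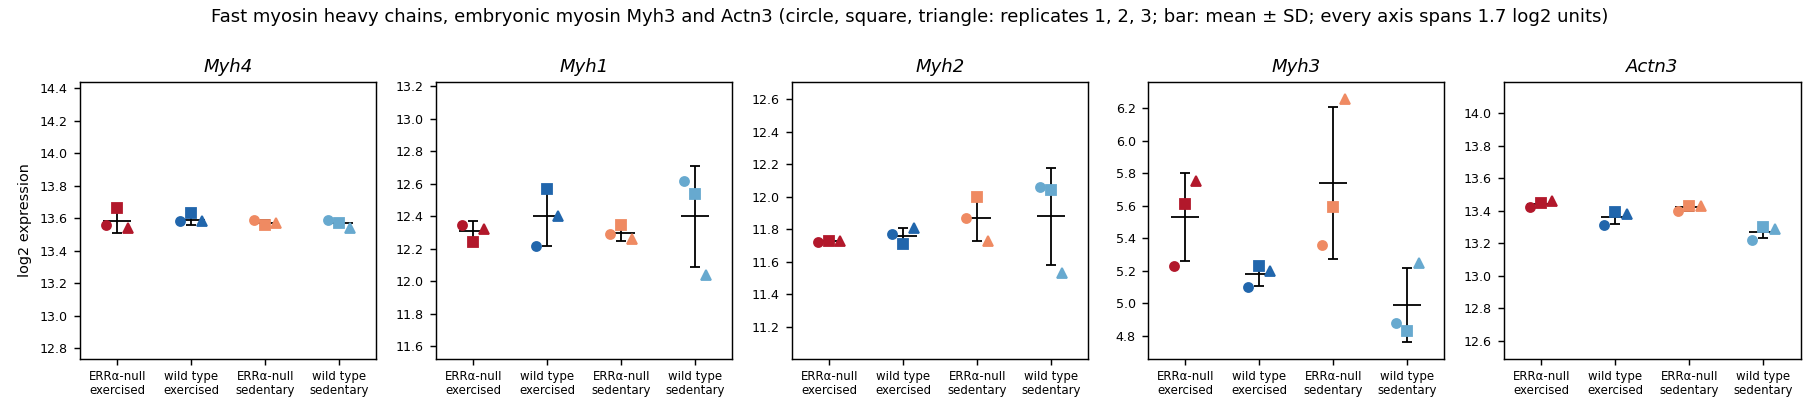
Log2 expression of Myh4, Myh1, Myh2, Myh3 and Actn3 on each array, by group (x axis), with symbols and bars as for the slow members; every y axis spans the same number of log2 units. Myh4 and Actn3 vary little over the 12 arrays, and Myh1 and Myh2 spread most among sedentary wild-type muscles. Myh3, which passed the filter only through its ERRα-null level, is higher on all 3 ERRα-null than on all 3 wild-type arrays in both states. After exercise its lowest null and highest wild-type arrays both round to 5.23.

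Myosin-binding protein C sits along the thick filament and tunes how readily myosin heads reach actin. Mybpc1, the slow-type form that is made in fast fibres as well, read 12.47, 12.47 and 12.47 in sedentary ERRα-null muscles, against 12.33, 12.28 and 11.99 in sedentary wild-type muscles. After exercise it read 12.41, 12.42 and 12.47 in ERRα-null muscles, against 12.18, 12.08 and 12.32 in wild-type muscles. In both states all null arrays were above all wild-type arrays. The difference was 0.27 ± 0.08 at rest (limma adjusted p = 0.341; 0.17 without sedentary wild-type replicate 3) and 0.24 ± 0.08 after exercise (limma adjusted p = 0.307). Averaged over both states it was 0.25 ± 0.06 (1.19-fold, 95% interval 0.13 to 0.38, limma adjusted p = 0.0599), the smallest adjusted p of any member in that comparison. Mybpc1 passed there without wild-type sedentary replicate 3 (0.20, adjusted p = 0.0443) or without wild-type exercised replicate 3 (0.29, adjusted p = 0.0479). Mybpc2, the fast form, read 12.58, 12.61 and 12.65 in sedentary ERRα-null muscles, against 12.45, 12.55 and 12.54 in sedentary wild-type muscles, without overlap and with a difference of 0.10 ± 0.06. After exercise it read 12.59, 12.79 and 12.72 in ERRα-null muscles, against 12.53, 12.63 and 12.62 in wild-type muscles, with overlap. The difference there was 0.11 ± 0.06 (limma adjusted p = 0.597).

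On the thin filament, tropomyosin lies along actin and the troponin complex moves it aside when calcium binds. Tpm3, the slow α-tropomyosin, read 7.64, 7.74 and 8.06 in sedentary ERRα-null muscles, against 7.53, 6.88 and 7.39 in sedentary wild-type muscles. The groups did not overlap, and the difference was 0.55 ± 0.17 (SE, 1.46-fold, unadjusted p = 0.00774, limma adjusted p = 0.364). A second Tpm3 probeset, of lower mean, differed by 0.01 at rest. After exercise Tpm3 read 7.55, 7.45 and 7.71 in ERRα-null muscles, against 7.35, 7.45 and 7.77 in wild-type muscles. The groups overlapped and the difference was 0.04 ± 0.17. Tnni1, the slow inhibitory troponin, read 7.86, 8.27 and 8.50 in sedentary ERRα-null muscles, against 8.02, 7.20 and 7.76 in sedentary wild-type muscles, a difference of 0.55 ± 0.23 (limma adjusted p = 0.552) with overlap. After exercise it read 7.95, 8.19 and 8.34 in ERRα-null muscles, against 7.69, 8.05 and 8.38 in wild-type muscles, with a difference of 0.13 ± 0.23. The slow troponins Tnnt1, which binds tropomyosin, and Tnnc1, which binds calcium, were higher by 0.58 and 0.33 at rest and by 0.27 and 0.10 after exercise, with no call. The fast thin filament members Tnnt3, Tnni2, Tnnc2 and Tpm1 differed by -0.06 to 0.06 at rest. Their values after exercise lay between -0.03 and 0.08.

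At the Z-disc, where thin filaments of neighbouring sarcomeres are anchored, the slow-fibre member is Myoz2 (calsarcin-1), which tethers the phosphatase calcineurin. Myoz2 read 10.59, 10.96 and 11.05 in sedentary ERRα-null muscles, against 10.52, 10.25 and 10.32 in sedentary wild-type muscles. All null arrays were above all wild-type arrays, by a small margin for replicate 1. The difference was 0.51 ± 0.13 (SE, 1.42-fold, unadjusted p = 0.00223, limma adjusted p = 0.237), the smallest p of any member at rest. After exercise Myoz2 read 10.68, 10.48 and 10.59 in ERRα-null muscles, against 10.22, 10.29 and 10.61 in wild-type muscles. The groups overlapped, with a difference of 0.21 ± 0.13 (limma adjusted p = 0.674). Averaged over both states the difference was 0.36 ± 0.09 (limma adjusted p = 0.0921), which passed without ERRα-null sedentary replicate 1 (0.43, adjusted p = 0.0315).

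Actn3, the α-actinin of fast fibres, which cross-links actin at the Z-disc, had the smallest p of the fast members. Actn3 read 13.40, 13.43 and 13.43 in sedentary ERRα-null muscles, against 13.22, 13.30 and 13.29 in sedentary wild-type muscles. After exercise it read 13.42, 13.45 and 13.46 in ERRα-null muscles, against 13.31, 13.39 and 13.38 in wild-type muscles. All null arrays were above all wild-type arrays in both states. The difference was 0.15 ± 0.04 at rest (1.11-fold, limma adjusted p = 0.253), 0.09 ± 0.04 after exercise (limma adjusted p = 0.508) and 0.12 ± 0.03 averaged (limma adjusted p = 0.0723). Among fast calsarcins, Myoz1 differed by -0.03 at rest and -0.04 after exercise, and Myoz3 by 0.16 and 0.10. Actn2, the α-actinin of all fibres, differed by 0.19 and 0.16, the giant spring titin (Ttn) by 0.15 and 0.06, and the thin filament ruler nebulin (Neb) by 0.04 and 0.04, with no call.

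Calcium is pumped back into the sarcoplasmic reticulum by SERCA and held there by calsequestrin. Atp2a2, which encodes the slow and cardiac pump SERCA2, was higher by 0.53 at rest (1.44-fold, limma adjusted p = 0.49) and by 0.24 after exercise. Casq2, the slow and cardiac calsequestrin, was higher by 0.21 and 0.19. Their fast counterparts Atp2a1 (SERCA1) and Casq1 differed by 0.04 and 0.02 at rest and by 0.02 and 0.06 after exercise. Pvalb, the calcium buffer parvalbumin of fast fibres, differed by 0.00 and 0.05.

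After exercise the genotype difference of the slow members was smaller in value: all 10 were higher in ERRα-null muscle (50.4% of all tested genes were above 0), with a median of 0.20 and overlapping groups for each. Between same-numbered exercised arrays, 10, 9 and 2 of the 10 were higher in ERRα-null muscle in pairs 1, 2 and 3, and 2 (Myh7 and Atp2a2) were higher in all 3 pairs. With replicate numbers as a block 0 members were called here. Without exercised wild-type replicate 1, 6 of the 10 slow members were higher in ERRα-null muscle, with a median of 0.02. Of the 37 members, 0 were called by limma after exercise (0.376% of all tested genes were called) and 1, Mybpc1, had an unadjusted p under 0.05 (10.4% of all tested genes). The groups did not overlap for 7 members, all higher in ERRα-null muscle (6.64% of all tested genes). The fast members had a median of 0.02, and 10 of 17 were above 0. Averaged over both states, 0 of 37 members were called by limma (1.43% of all tested genes were called), and 11 had an unadjusted p under 0.05, all higher (5.18% of all tested genes). The 11 include Myh3, which was tested only through its level in ERRα-null muscle, so its place in this count supports nothing. The slow median averaged over both states was 0.35 and the fast median 0.02, beside 0 over all tested genes.

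**Figure D3:**
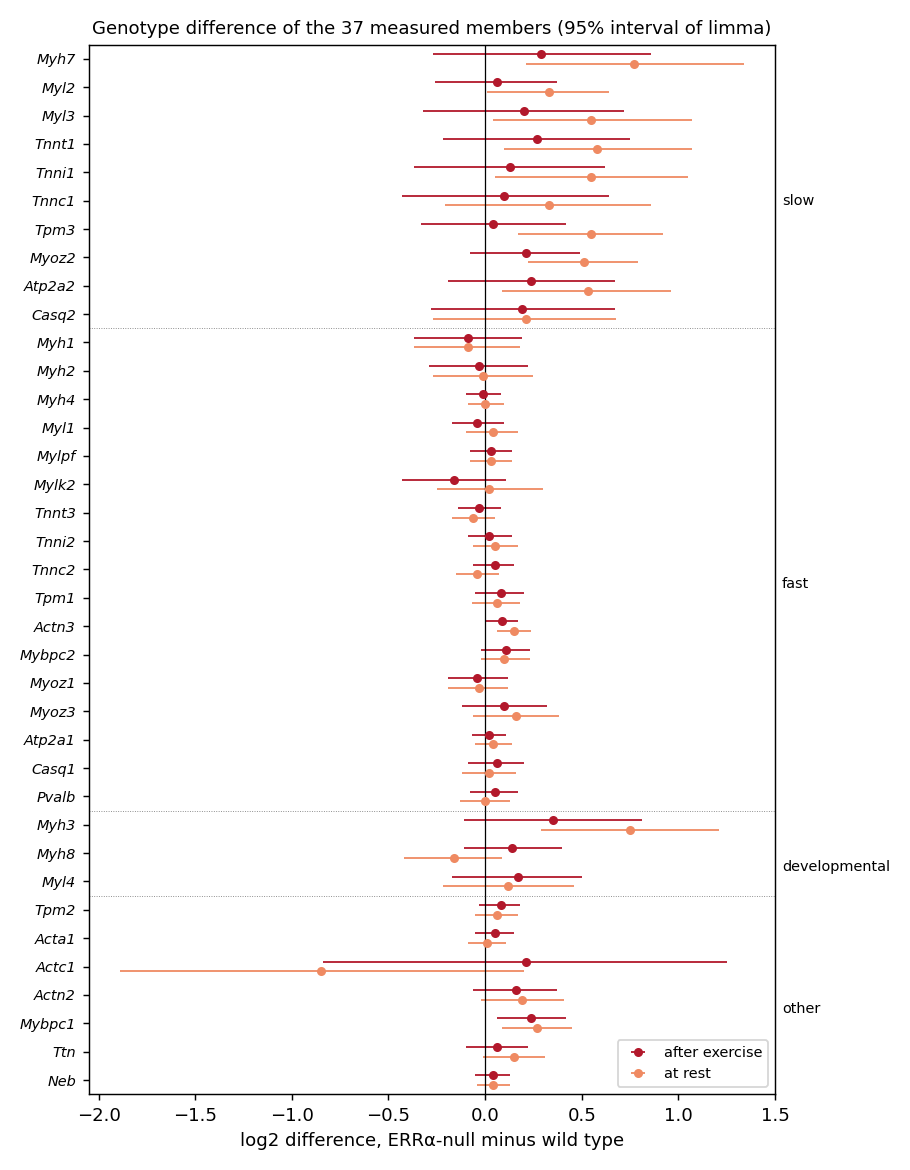
ERRα-null minus wild-type difference in log2 expression (x axis) of the 37 measured members, after exercise and at rest, with 95% intervals of limma; members are grouped as slow, fast, developmental and other. The 10 slow members lie right of 0 in both states, the fast members lie between -0.16 and 0.16, and Actc1 has the widest interval.

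The slow members also differed between mice of one group, and they did so largely together, least so in exercised ERRα-null muscle. The median within-group SD of the slow members was 0.32 (range 0.18 to 0.38), against 0.06 (0.03 to 0.18) for the fast members and 0.14 over all tested genes. From the lowest to the highest of the 12 arrays, slow members spanned 0.64 to 1.48, with a median of 1.12, against 0.12 to 0.58 for fast members, with a median of 0.26. Sedentary ERRα-null replicate 3 was the highest of the 12 arrays for 8 of 10 slow members, and sedentary wild-type replicate 2 the lowest for 7 of 10. Within sedentary ERRα-null muscles replicate 1 was the lowest for 10 of 10, and within sedentary wild-type muscles replicate 1 was the highest for 10 of 10. Exercised wild-type replicate 3, one of the arrays with a female profile, was the highest of its group for 10 of 10. Within exercised ERRα-null muscles replicate 3 was the highest for 6 of 10 and replicate 1 the lowest for 7 of 10. For 9 of the 10 slow members at rest the range within one genotype exceeded the difference between genotypes, the exception being Myoz2. After exercise this held for 10 of 10.

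Several fast members were read near the top of the scale. In 7 of the 17, the mean level lay within 1 log2 unit of 13.75, the highest value of any probeset, where 30 of all 13308 tested genes lie. How far such brightness compresses a difference was not tested.

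B-cell transcripts other than Ighm were high at rest where the slow members were low. The mean level of 4 B-cell markers read 8.68, 6.02 and 6.01 in sedentary ERRα-null muscles, against 6.38, 8.18 and 8.06 in sedentary wild-type muscles, and 5.56 to 6.57 in exercised muscles. Ighm, 1 of these 4, differed by genotype instead: 10.73, 10.06 and 10.42 in sedentary ERRα-null muscles, against 11.62, 11.93 and 11.86 in sedentary wild-type muscles. After exercise Ighm read 10.08, 8.13 and 9.05 in ERRα-null muscles, against 11.59, 12.11 and 11.31 in wild-type muscles. The 3 sedentary arrays with the highest B-cell level were the 3 with the lowest slow-member levels at rest: relative to each gene's mean over the arrays, the slow members averaged -0.05 there in ERRα-null replicate 1, and -0.54 and -0.27 in wild-type replicates 2 and 3. The other sedentary arrays averaged 0.31 and 0.49 in ERRα-null and 0.08 in wild-type muscle. With the liver, fat and B-cell marker levels as covariates, 8 of 10 slow members were higher at rest with a median of 0.27, and 6 of 10 after exercise with a median of 0.01. The B-cell covariate includes Ighm and so carries part of the genotype difference itself. The fat marker level also differed by state, at 6.91 to 7.59 in exercised and 6.75 to 9.66 in sedentary muscles. The liver marker level read 7.98, 8.97 and 5.93 in sedentary ERRα-null muscles, against 10.36, 7.77 and 6.17 in sedentary wild-type muscles, and 6.16 to 8.11 in exercised muscles. Seminal vesicle markers, 5 of 6 of which were on the array and none of which passed the filter, averaged 11.99 in sedentary ERRα-null replicate 1 and 3.14 to 3.5 on the other 11 arrays. Without that replicate all 10 slow members were higher at rest, with a median of 0.65.

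**Figure D4:**
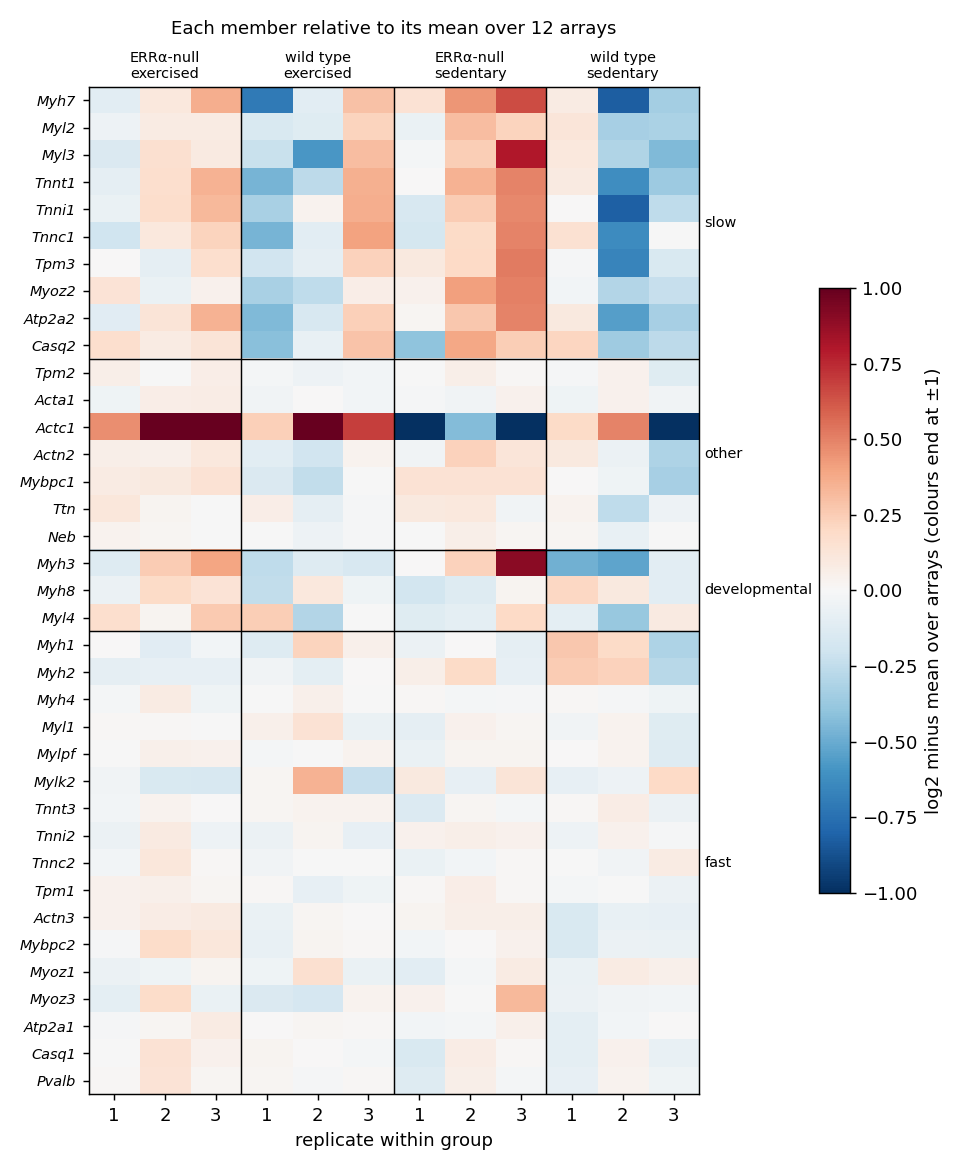
Log2 expression of each of the 37 members (rows) on each array (columns, by group and replicate), relative to the member's mean over the 12 arrays; red is above and blue below the mean, and colours end at 1 in each direction. The slow members are all red in sedentary ERRα-null replicate 3 and all blue in sedentary wild-type replicate 2, some of them, such as Myl2 and Casq2, only lightly. Actc1 is red on all exercised arrays and dark blue on 3 sedentary arrays, and most fast members are pale throughout.

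Of the contractile genes, Actc1 alone was called for exercise at 2 h, as an average over both genotypes. In wild-type muscle 0 of 37 members were called by limma (3.43% of all tested genes were called) and 1, Actn3, had an unadjusted p under 0.05 (16.1% of all tested genes). In ERRα-null muscle 0 were called (0.639% of all tested genes) and 2 had an unadjusted p under 0.05 (13.1%), Actc1 higher and Myoz2 lower. Averaged over both genotypes 1 of 37 was called, Actc1, which rose (3.14% of all tested genes were called higher).

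Actc1 encodes cardiac α-actin, the main actin of heart and of developing muscle, made at a lower level in adult limb muscle. Actc1 read 10.56, 11.10 and 11.18 in exercised ERRα-null muscles, against 8.48, 9.66 and 8.63 in sedentary ERRα-null muscles. All exercised arrays were above all sedentary ones, with a difference of 2.02 ± 0.48 (SE, 4.06-fold, unadjusted p = 0.00117, limma adjusted p = 0.0931). In wild-type muscle Actc1 read 10.33, 11.10 and 10.79 after exercise, against 10.29, 10.59 and 8.43 at rest. Only sedentary replicate 3 was far below the exercised arrays, and the difference of 0.97 ± 0.48 did not pass (limma adjusted p = 0.353). Averaged over genotypes Actc1 rose by 1.50 ± 0.34 (2.82-fold, 95% interval 0.76 to 2.23, limma adjusted p = 0.0207). The change did not differ between genotypes past the threshold (1.05 ± 0.68, limma adjusted p = 0.999).

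The call for Actc1 rested on few arrays. It was lost without ERRα-null sedentary replicate 3, without exercised ERRα-null replicate 2 or without exercised ERRα-null replicate 3 (1.42, 1.46 and 1.44, with limma adjusted p = 0.0549, 0.0576 and 0.0559). The 3 arrays with Actc1 under 9 were sedentary ERRα-null replicates 1 and 3 and sedentary wild-type replicate 3. The mean of 9 brown fat and adipocyte markers on them was 8.55, 8.72 and 9.66, beside 7.07 in the remaining sedentary ERRα-null muscle, 6.75 and 8.83 in the remaining sedentary wild-type muscles, and 6.91 to 7.59 in all exercised muscles. With the liver, fat and B-cell marker levels as covariates the exercise difference of Actc1 was 0.83 (limma adjusted p = 0.538). Acta1, the skeletal α-actin, lay between 13.58 and 13.70 on all 12 arrays, near the highest value of any probeset (13.75).

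None of the slow members was called for exercise. In wild-type muscle 10 of 10 were above their sedentary mean (47.7% of all tested genes), with a median of 0.15 and a range of 0.01 (Myoz2) to 0.38 (Tnni1, limma adjusted p = 0.459 as the smallest). In ERRα-null muscle 9 of 10 were below it (52.8% of all tested genes), with a median of -0.14, and Myoz2 differed by -0.29 ± 0.13 (limma adjusted p = 0.381). The direction in wild-type muscle rested on single arrays. Without exercised replicate 3, the wild-type array of female profile, 3 of 10 slow members were above their sedentary mean, with a median of -0.06, and without sedentary replicate 2 this was 5 of 10, with a median of 0. Without sedentary replicate 3 it was 8 of 10, with a median of 0.12. In ERRα-null muscle 1 of 10 was above it without the arrays of female profile, with a median of -0.31, and leaving out 1 array gave 0 to 3 of 10. With the liver, fat and B-cell marker levels as covariates the medians were -0.79 in ERRα-null and -0.60 in wild-type muscle, with 0 of 10 above 0 in each. The test of whether exercise acted differently in the genotypes called 0 of 37 members (0.00751% of all tested genes), and 0 had an unadjusted p under 0.05 (5.12% of all tested genes). All 10 slow members had values below 0 in it (50.6% of all tested genes), with a median of -0.31, beside 0 over all tested genes, and the lowest p was that of Tpm3 (-0.50 ± 0.24, unadjusted p = 0.0594, limma adjusted p = 0.988). Without exercised wild-type replicate 3, 2 of the 10 were above 0 and the median was -0.14.

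**Figure D5:**
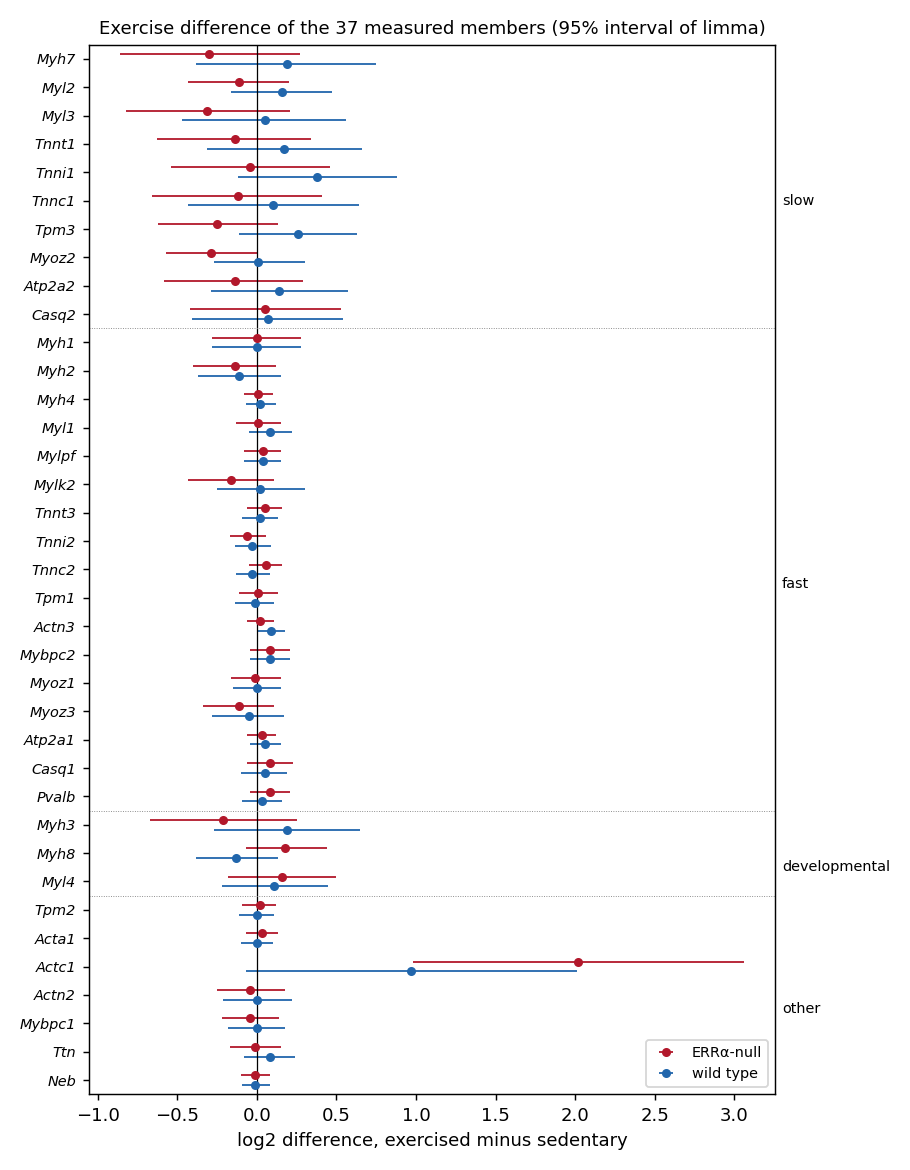
Exercised minus sedentary difference in log2 expression (x axis) of the 37 measured members in ERRα-null and in wild-type muscle, with 95% intervals of limma, in the same order and grouping as for genotype. Actc1 lies at 2.02 in ERRα-null and 0.97 in wild-type muscle, while every other member lies between -0.31 and 0.38.

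Genes that build or regulate the same apparatus but are not fast or slow isoforms gave calls with exercise. Of 27 tested further sarcomere genes, 2 rose and 1 fell in exercised ERRα-null muscle (0.639% of all tested genes were called), and 4 rose and 1 fell in exercised wild-type muscle (3.43%). Klhl40, which stabilises thin filament proteins, averaged 10.46 ± 0.31 in exercised against 8.83 ± 0.26 in sedentary ERRα-null muscles, and 10.42 ± 0.42 in exercised against 8.59 ± 0.10 in sedentary wild-type muscles (SD, n = 3 each). It rose by 1.63 ± 0.20 in ERRα-null muscle (limma adjusted p = 0.00269) and 1.82 ± 0.20 in wild-type muscle (limma adjusted p = 0.00034). Flnc, the Z-disc actin cross-linker filamin C, rose by 0.79 ± 0.15 in ERRα-null muscle (limma adjusted p = 0.0386) and by 1.10 ± 0.15 in wild-type muscle (limma adjusted p = 0.00141). Tcap, which caps titin at the Z-disc, fell by 0.32 in ERRα-null muscle and by 0.34 in wild-type muscle (limma adjusted p = 0.0472 and 0.0131). Lmod2, which nucleates actin filaments, rose by 0.57 in wild-type muscle (limma adjusted p = 0.0129), and Mypn, a Z-disc scaffold, by 0.27 (limma adjusted p = 0.0158). With 1 array left out, Klhl40 stayed called in both genotypes and Flnc in wild-type muscle. The largest adjusted p was then 0.173 for Flnc in ERRα-null muscle, and 0.0605 for Tcap, 0.0604 for Lmod2 and 0.069 for Mypn in wild-type muscle. Tcap in ERRα-null muscle was lost without any 1 array (0.0734 to 0.194). No sarcomere gene of the list was called by limma for the difference between the genotypes' exercise effects (0.00751% of all tested genes were called). Of the 27, 1 had an unadjusted p under 0.05 (5.12% of all tested genes), Lmod2 (-0.62, limma adjusted p = 0.603).

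For genotype, 1 of the 27 was called, Pdlim3, an α-actinin-binding protein of the Z-disc, and it was higher. Of all tested genes, 1.43% were called averaged over both states and 0.376% after exercise. At rest 23 of the 27 had higher means in ERRα-null muscle (49.6% of all tested genes). There 6 had an unadjusted p under 0.05 (4.07%) and 8 did not overlap (6.91%), all higher. Averaged over both states 20 were higher, and 10 had an unadjusted p under 0.05, all higher (5.18%). After exercise 18 were higher (50.4%), and at an unadjusted p under 0.05 there were 6 higher and 1 lower (10.4%). Pdlim3 read 12.73, 12.89 and 12.64 in exercised ERRα-null muscles, against 12.29, 12.44 and 12.38 in exercised wild-type muscles, and 12.61, 12.66 and 12.69 in sedentary ERRα-null muscles, against 12.26, 12.31 and 12.42 in sedentary wild-type muscles. All null arrays were above all wild-type arrays of the same state. Averaged over both states it rose by 0.35 ± 0.05 (1.28-fold, limma adjusted p = 0.00482). It was not called there without the arrays of female profile, a fit that leaves a single exercised ERRα-null array. After exercise alone it rose by 0.38 ± 0.07 (limma adjusted p = 0.0424), a call that was lost once replicate numbers entered as a block (limma adjusted p = 0.0516) and without any 1 array (0.0722 to 0.134).

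Of 22 tested genes of calcium release and its control, 1 was called for genotype, Jph1, which holds the surface and calcium-store membranes together. Jph1 was higher in ERRα-null muscle by 0.21 ± 0.04 averaged over both states (limma adjusted p = 0.0241; 1.43% of all tested genes were called). The call was lost without any 1 of 9 of the 12 arrays (leave-one-out adjusted p 0.0227 to 0.0714). None of the 22 was called by limma for exercise in ERRα-null muscle (0.639% of all tested genes) or in wild-type muscle (3.43%). At an unadjusted p under 0.05 there was 1 in ERRα-null muscle (Cacnb1, 13.1% of all tested genes) and 1 in wild-type muscle (Jph1, 16.1%). Of 13 tested regulators of fibre type, 0 were called by limma for genotype at rest, after exercise or averaged (0.0827%, 0.376% and 1.43% of all tested genes). At an unadjusted p under 0.05 there were 2, 3 and 4, all higher. Of all tested genes 4.07% did so at rest and 5.18% averaged, counting those higher, and 10.4% after exercise, counting both directions. Vgll2, a partner of the TEAD factors, rose with exercise by 1.04 ± 0.18 in wild-type muscle (limma adjusted p = 0.00766) and differed by 0.32 ± 0.18 in ERRα-null muscle (limma adjusted p = 0.474). The difference between these effects was -0.71 ± 0.25 (limma adjusted p = 0.932). Eya1, a transcriptional cofactor, rose by 0.37 in wild-type muscle (limma adjusted p = 0.0289, up to 0.105 with 1 array left out) and by 0.36 averaged over genotypes (limma adjusted p = 0.00317).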

How the data were processed

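RNA of 12 muscles was measured on 12 arrays, 3 in each of 4 groups named in the sample titles. The deposited values are log2 expression made by the authors; the submitters' processing notes name Transcriptome Analysis Console, Affymetrix Expression Console and RMA. No version is given in the sources used here, nor a genome build. RMA puts the arrays on a common distribution, so differences are relative to the bulk of transcripts. Of 41345 probesets, the platform table names 1 gene for 23521, several genes for 1814 and no gene for 16010; 23328 of the first matched RefSeq GRCm38.p6. For the 1082 genes with several probesets the one with the highest mean was used. The 40% of genes with the lowest mean, under 5.32, were not tested.

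Limma 3.58.1 in R 4.3.3 fitted 4 group means over the 12 arrays (8 residual degrees of freedom) with an intensity trend. Tests were two-sided, with Benjamini-Hochberg adjustment over 13308 genes in each of 7 comparisons. The model was tested on simulated data. The members and lists were chosen with earlier results of these data known. Values on every array are given for Esrra, the adult myosin heavy chains, called members and, in each comparison of 2 groups and in the interaction, the 4 members with the smallest p; of further genes, those called and up to 3 with the smallest p of a list were eligible. Replicate numbers were checked for pairing: deviations of same-numbered arrays correlated at 0.31, 0.21 and 0.17 between the exercised genotypes, but not in all pairs of the other comparisons. Same-numbered exercised arrays were therefore also compared by pair, and replicate numbers entered as a block in an alternative fit. The main tests left all arrays unpaired. The alternatives were another choice of probeset, filter or variance prior, fewer arrays, a replicate block, median centring, and marker levels of other tissues as covariates. The number of arrays limits the precision, and p-values measure the spread between these mice.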

Additional observations from a re-analysis of the deposited data

How the results depend on the processing

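Among the 7 counts of called members, those for genotype at rest, genotype after exercise and the interaction were 0 under every alternative run. With the tissue marker levels as covariates, 1 member was called for exercise in wild-type muscle (Casq2, -0.82) and 1 for exercise averaged over genotypes (Casq2, -0.76, with Actc1 no longer called). With only the arrays compared, 1 was called for exercise in ERRα-null muscle (Actc1, adjusted p = 0.0444). The replicate block gave 1 call for the averaged genotype effect (Myh3, below the filter on all wild-type arrays) and changed no other count of called members. Leaving out 1 array gave 0 to 1 calls for the averaged genotype effect and 0 to 2 for the averaged exercise effect, the 2 being Actc1 and Myh2 without wild-type sedentary replicate 3. Without the arrays of female profile the averaged exercise effect had 0 calls (Actc1 1.29, adjusted p = 0.304), and 5 of 17 fast members were higher in ERRα-null muscle after exercise. Slow members higher in ERRα-null muscle after exercise numbered 6 with the tissue covariates and 6 to 10 with 1 array left out, the 6 being without wild-type exercised replicate 1. At rest all 10 stayed higher with any 1 array left out, with medians of 0.37 to 0.69. Of 1000 values of single genes under alternatives, 136 lost a call and 1 gained one. A further 859 kept their side of the threshold, with the same sign or, where neither fit gave a call, a sign change smaller than the SE. The other 4, not called in either fit, changed sign by at least the SE. With 3 arrays a group, the differences of slow members, whose spread was wide, were measured less precisely than those of fast members.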

Other observations

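Of 10 tested further genes typical of slow fibres, 6 were higher at rest in ERRα-null muscle (49.6% of all tested genes were above 0), with a median of 0.06. None was called by limma (0.0827% of all tested genes were called), with 1, higher, at an unadjusted p under 0.05 (4.07% of all tested genes). Ankrd2, a stretch-responsive protein, read 8.42, 8.89 and 9.22 in sedentary ERRα-null muscles, against 9.71, 9.19 and 8.92 in sedentary wild-type muscles. Its genotype difference averaged over both states was -0.50 ± 0.15 (limma adjusted p = 0.166). Sln, which encodes the SERCA inhibitor sarcolipin, differed by 0.64 ± 0.30 (limma adjusted p = 0.416). With exercise averaged over genotypes, Csrp3, the muscle LIM protein of the Z-disc, rose by 0.86 ± 0.16 (limma adjusted p = 0.00737), and Ankrd2 rose by 0.70 ± 0.15 (limma adjusted p = 0.0184).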
